A study of Mus musculus with 10 samples.

Results

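The genes described here encode parts of the elastic fibre and the enzymes that cross-link it, measured on 10 oligonucleotide arrays of cultured mouse fibroblasts. They were chosen by name, as the probe sets that carry a single one of 9 gene symbols (Eln, Fbn1, Fbln1, Fbln2, Fbln5, Lox, Loxl1, Loxl2 and Mfap5). Of the 34945 probe sets with 1 symbol, 16 met the rule and stood for 7 of the 9 genes. Fbn1 had no such probe set, and Loxl2 is listed only together with another gene, so these 2 were not analysed here.

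The series asked how Med23, a subunit of the Mediator complex that couples transcription factors to RNA polymerase II, bears on the choice between smooth muscle and fat cells. Embryonic fibroblasts (MEFs) came from embryos of day 9.5 and had become immortal in culture without an added gene. WT (wild type) and Med23KO cells (knockout, KO) were each sampled at 3 points: before serum was given (0 min), and 30 or 90 min into serum treatment. The other arrays held 10T1/2 cells, a fibroblast line derived from mouse embryo. These were a control, cells with MAL overexpression, cells with Med23 deficiency by knockdown, and cells with both. MAL is a coactivator of SRF, a transcription factor of muscle and serum-response genes. Each of the 10 conditions had 1 array, and the labels name no second line of either genotype, so a difference between genotypes cannot be told apart from a difference between these cultures.

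An elastic fibre forms when tropoelastin, the product of Eln, is laid down on a scaffold of microfibrils. Microfibrils are built of fibrillins such as the product of Fbn1 and carry small glycoproteins such as that of Mfap5. Fibulins bind tropoelastin and microfibrils and help to bring them together. Lysyl oxidases, the copper enzymes encoded by Lox and the Loxl genes, then oxidise lysine residues so that elastin and collagen chains become cross-linked. Fibroblasts and smooth muscle cells are the main makers of these proteins in connective tissue and vessel walls.

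All values are log2 expression values, so that a difference of 1 is a doubling. The median over all probe sets of an array lay between 3.86 and 3.93 for MEFs and between 3.64 and 3.70 for 10T1/2 cells. A level below its array's median is treated as possibly background. Med23 read from 6.90 to 7.39 on the WT arrays and from 2.91 to 3.30 on the KO arrays, and in 10T1/2 cells it read 5.45 and 5.67 without the knockdown and 4.24 and 3.94 with it. Of 14 fibroblast markers, 11 lay above the median on every MEF array. Thy1 and Fap, which mark many fibroblasts, and Lum lay below it on all 6 MEF arrays. The summed level of the 14 fibroblast genes ran from 131.1 to 133.2 in WT and from 119.4 to 123.1 in KO cells. Single fibroblast genes went both ways. The proteoglycan gene Dcn read 13.71, 13.60 and 13.62 in WT and 4.53, 4.26 and 4.73 in KO cells, and the collagen gene Col1a2 read 9.55, 9.76 and 9.13 in WT and 13.39, 13.40 and 13.31 in KO cells. Col1a1 ran from 12.11 to 12.21 in WT and from 12.12 to 12.36 in KO cells. Markers of other cell types also differed with genotype. The summed level of 8 smooth muscle genes ran from 40.8 to 43.7 on the WT arrays and from 53.2 to 62.0 on the KO arrays, and the defining gene Myh11 lay below the median on all 6. The shift was not uniform. Tagln read 4.82, 6.19 and 5.86 in WT and 11.03, 11.62 and 11.81 in KO cells. Des went the other way, at 4.39, 4.26 and 4.59 against 4.01, 4.06 and 4.19. The summed level of 5 neural and neural crest genes ran from 30.0 to 32.0 in WT and from 24.4 to 25.0 in KO cells. Sox2 read 8.33, 7.61 and 9.11 against 2.61, 2.99 and 2.87, and Nes was lower in KO cells too. Ncam1 went the other way, at 7.41, 7.41 and 6.90 against 8.35, 8.23 and 7.82, and Sox10 and Tubb3 overlapped. For 5 macrophage genes the summed level ran from 23.5 to 24.8 in WT and from 19.8 to 20.0 in KO cells, with Cd14 at 9.28, 9.22 and 8.13 against 6.25, 6.13 and 6.21. For 5 endothelial genes the summed level ran from 15.9 to 16.6 in WT and from 17.7 to 18.6 in KO cells. Only Emcn differed there, at 3.10, 2.73 and 2.92 against 5.38, 4.95 and 5.27. Pecam1, Cdh5, Kdr and Tek overlapped between the genotypes. The epithelial, adipocyte and chondrocyte and bone lists overlapped between the genotypes. The part of these differences in the results on elastic fibre genes was not tested. In bulk RNA a change in the share of cells of 1 type and a change in each cell cannot be told apart. RNA quality, read as the 3' minus 5' difference of the Gapdh and beta-actin control probe sets, lay between -0.26 and 0.33 on all 10 arrays.

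In the MEFs, KO and WT cells differed in the levels of fibulin, microfibril and lysyl oxidase genes. Fbln1, Lox and Loxl1 lay above the array medians on all 6 arrays, so these differed in amount. Fbln5, Fbln1 and Loxl1 rose in KO cells, Mfap5 and Lox fell, and Eln lay near or below background in both genotypes. Of the 6 genes that passed the filter on low values, 3 rose and 2 fell at an adjusted p under 0.05 in limma, against 42.1% of all genes tested (21.2% higher and 20.8% lower). With that background, passing the threshold is common in this comparison. Mfap5 and Fbln2 passed the filter only through their WT levels. The median coefficient of the 6 was 0.40 and their median absolute coefficient 2.13, against -0.02 and 0.37 over all genes tested.

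**Figure D1:**
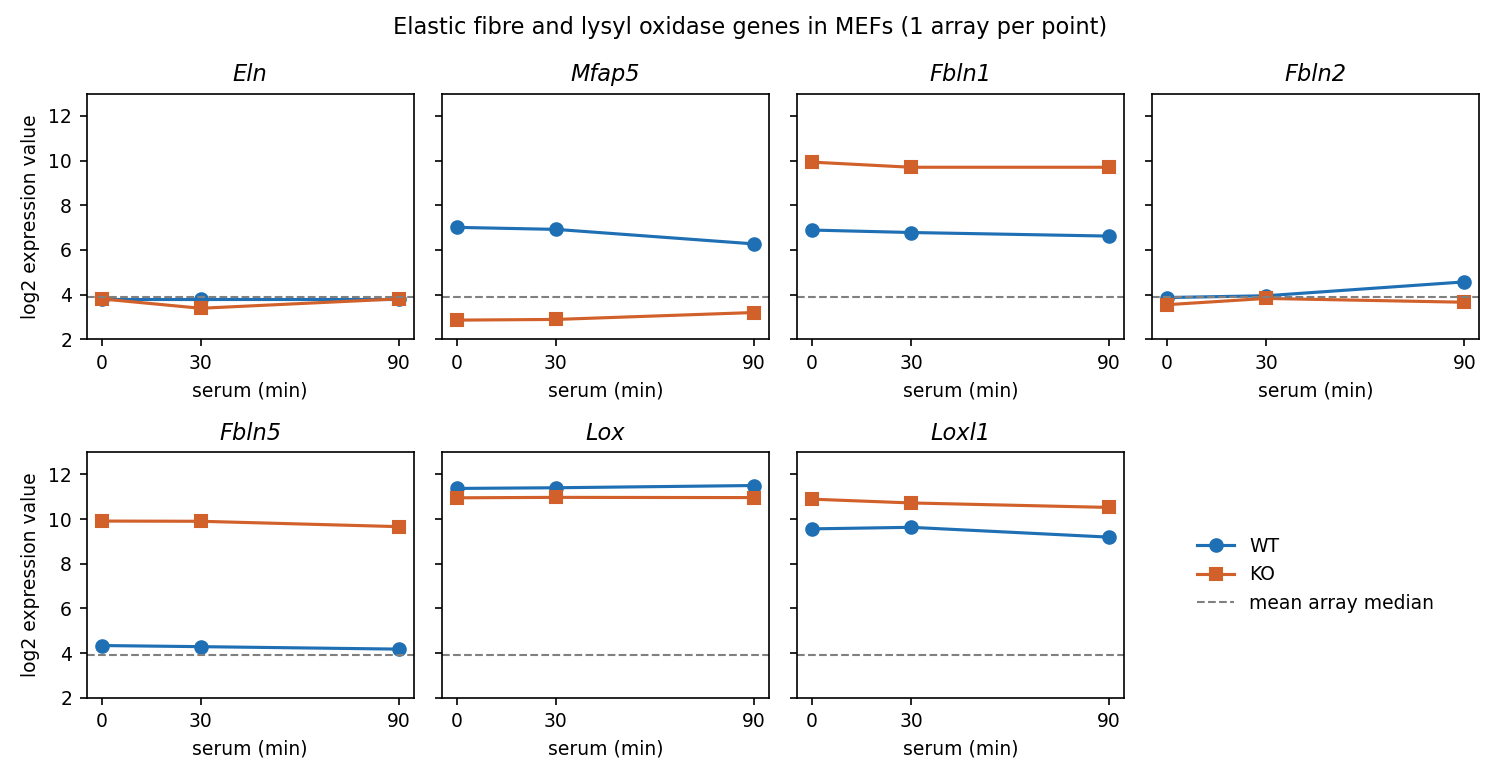
Levels of the 7 genes on the 6 MEF arrays, 1 panel a gene, with the log2 expression value of the representative probe set against serum time in minutes. Circles are WT and squares KO arrays, 1 array a point, and the dashed line is the mean of the 6 array medians. Fbln5, Fbln1 and Loxl1 lie higher on every KO array, Mfap5 and Lox lie lower, and Eln runs along the line of the medians.

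Eln encodes tropoelastin, the soluble precursor of elastin (chromosome 5, positions 134702595 to 134747368 of GRCm38.p6). Its representative probe set, 1420855_at, read 3.81 on all 3 WT arrays and 3.81, 3.39 and 3.81 on the KO arrays at 0, 30 and 90 min. All 6 values lay below their array medians, so this probe set was not tested in the MEFs. The other probe set, 1420854_at, read 4.26, 4.0 and 4.09 in WT and 4.16, 3.83 and 4.0 in KO cells. The genotypes overlapped, and its coefficient of -0.12 (SE 0.13, n = 3 pairs) did not pass (limma adjusted p = 0.493). A difference in Eln between the genotypes was not detectable at these levels.

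Mfap5 encodes MAGP-2, a small glycoprotein of microfibrils that also binds integrins (chromosome 6, 122513584 to 122529290). It read 7.01, 6.92 and 6.27 in WT and 2.86, 2.89 and 3.20 in KO MEFs at 0, 30 and 90 min (probe set 1418454_at). The WT values all lay well above the array medians and the KO values all below them. The KO coefficient was -3.75 (SE 0.23, n = 3 pairs, limma adjusted p = 9.55e-05), and with the KO levels raised to the array medians the gene was at least 7.18-fold lower. The second probe set, 1449082_at, lay below the median on all 6 MEF arrays, from 3.29 to 3.84, and so did not show the WT level of the first. Its KO minus WT differences were -0.25, 0.06 and -0.41 at 0, 30 and 90 min. In 10T1/2 cells it read from 5.2 to 6.99, where 1418454_at read from 6.77 to 8.42. The fall of Mfap5 in KO MEFs thus rests on 1418454_at alone, and why the probe sets differ in WT MEFs was not tested.

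Fbln5 encodes a fibulin that binds tropoelastin and is needed for the assembly of elastic fibres in mice. On the WT arrays it read 4.34, 4.29 and 4.18, just above the medians, and on the KO arrays 9.91, 9.90 and 9.66 (1416164_at). No serum time brought the genotypes within 5 log2 units of each other. The coefficient was 5.55 (SE 0.12, n = 3 pairs, 47.0-fold, limma adjusted p = 3.19e-06), the 34th highest of 11933 genes. The second probe set, 1446377_at, lay below the median on all 10 arrays.

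Fbln1 encodes a fibulin of basement membranes and elastic fibres. It read 6.89, 6.78 and 6.62 in WT and 9.93, 9.70 and 9.70 in KO MEFs (1451119_a_at), a difference of between 2.92 and 3.08 at each time. The coefficient was 3.01 (SE 0.12, n = 3 pairs, 8.07-fold, limma adjusted p = 2.10e-05). A second probe set, 1422540_at, gave nearly the same size (2.97, SE 0.13, 7.84-fold). Probe set 1439688_at read only between 4.12 and 4.81 and gave 0.42 (SE 0.13, adjusted p = 0.044). The probe sets thus had 1 direction and differed in size.

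Fbln5 and Fbln1 are the members that rose most in KO cells, so the 250 bases before the start of each gene's most upstream transcript are shown. They come from the RefSeq table of GRCm38.p6, from which windows were kept for 4 of the 9 symbols. The Fbln5 window is chr12:101819120-101819369 on the minus strand and the Fbln1 window chr15:85205699-85205948 on the plus strand. Each is written 5' to 3' along the gene, with matches to the motifs searched in capitals.
Fbln5: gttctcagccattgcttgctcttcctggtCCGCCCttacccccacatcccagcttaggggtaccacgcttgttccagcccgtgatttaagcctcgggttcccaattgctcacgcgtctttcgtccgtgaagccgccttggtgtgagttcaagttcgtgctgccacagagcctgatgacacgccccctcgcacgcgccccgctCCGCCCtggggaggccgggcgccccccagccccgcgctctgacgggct
Fbln1: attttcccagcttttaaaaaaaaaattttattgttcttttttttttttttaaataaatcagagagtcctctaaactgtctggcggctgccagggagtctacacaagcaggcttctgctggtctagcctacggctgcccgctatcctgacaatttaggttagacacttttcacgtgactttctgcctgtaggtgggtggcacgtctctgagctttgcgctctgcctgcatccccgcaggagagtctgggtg
The search covered both strands for the CArG box that SRF binds, GGAATG of TEAD factors, TGANTCA of AP-1, the GC box GGGCGG and TATAAA. The Fbln5 window held 2 GC boxes, at -221 to -216 and -48 to -43 from the start, and none of the other motifs. The Fbln1 window held no match to any of the 5 motifs. The table also gives a start further downstream for each gene, not shown here, and the window before it held 1 GC box at -11 to -6 for Fbln1 and no match for Fbln5. Over all 32851 windows of this length, 1.47% held a CArG box, 12.6% GGAATG, 6.75% TGANTCA, 32.7% a GC box and 12.4% TATAAA. The share of G and C was 65.2% in the Fbln5 window and 46.4% in the Fbln1 window, with a median of 52.4% over all windows. These are descriptions of the letters, and no binding was measured in the series.

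Fbln2 encodes a larger fibulin that is found with elastic fibres and basement membranes. It stayed near the array medians in the MEFs, at 3.87, 3.95 and 4.57 in WT and 3.55, 3.83 and 3.66 in KO cells (1423407_a_at). Its KO coefficient was -0.45 (SE 0.18, n = 3 pairs, 95% interval from -0.89 to -0.01) and did not pass over all genes (limma adjusted p = 0.0918). Of the 6 values, 4 lay below their array medians.

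Among the cross-linking enzymes, Lox and Loxl1 went in opposite directions. Lox encodes lysyl oxidase itself (chromosome 18, 52516060 to 52529867). It read 11.37, 11.40 and 11.50 in WT and 10.95, 10.97 and 10.96 in KO MEFs (1416121_at). The groups did not overlap, and Lox fell, with a coefficient of -0.46 (SE 0.12, n = 3 pairs, 1.38-fold lower, limma adjusted p = 0.0245). The call was lost when the pair at 0 min was left out (adjusted p = 0.129) or the pair at 30 min (0.121), and held without the pair at 90 min (0.0436). The second well-expressed probe set, 1448228_at, read 10.94, 10.89 and 11.01 in WT and 10.67, 10.69 and 10.92 in KO cells, and its coefficient of -0.19 (SE 0.13) did not pass (adjusted p = 0.299). The remaining Lox probe set, 1437903_at, lay below the median on all 10 arrays.

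Loxl1 encodes the lysyl oxidase-like enzyme that fibulin-5 binds and that mice need to keep up their elastic fibres (chromosome 9, 58287723 to 58313212). It read 9.56, 9.63 and 9.19 in WT and 10.89, 10.72 and 10.52 in KO MEFs (1451978_at). Every KO value lay above every WT value, with a coefficient of 1.25 (SE 0.13, n = 3 pairs, 2.38-fold, limma adjusted p = 0.000714). The second probe set, 1436063_at, also rose (0.99, SE 0.13, 1.99-fold, adjusted p = 0.00211), from 4.43, 4.76 and 4.60 to 5.32, 5.77 and 5.68.

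The other genes of the pathway came from a list of 46 genes for microfibril proteins, fibulins, latent TGF-beta binding proteins, emilins, lysyl oxidases and their processing, ADAMTS proteins, chaperones, the elastin receptor and elastases. Of these, 43 had a named probe set and 31 passed the filter in the MEFs. With the KO, 8 rose and 14 fell in limma, against the 42.1% of all genes, and their median coefficient was -0.38 against -0.02 over all genes. Among microfibril genes Mfap4 rose 10.6-fold (coefficient 3.4, SE 0.17, n = 3 pairs, adjusted p = 4.67e-05), from 4.65, 4.01 and 4.35 to 7.72, 7.82 and 7.67. Fbn2, a fibrillin of developing tissue, rose 4.66-fold (coefficient 2.22, SE 0.28, adjusted p = 0.00156), from 5.81, 6.16 and 6.50 to 8.72, 8.5 and 7.91. Mfap2 (0.01) and Mfap3 (-0.28) did not pass.

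Latent TGF-beta binding proteins attach stored TGF-beta to microfibrils. All 3 of them that were tested fell, led by Ltbp1 (-1.65, SE 0.24, n = 3 pairs, 3.13-fold lower, limma adjusted p = 0.00296). Over all genes tested, 20.8% were called lower and 21.2% higher. With so few genes in a role, its count is a description and not a result about the role. Of the 5 tested genes for lysyl oxidase processing and copper supply, 3 fell and 0 rose. They were Bmp1 (-0.83), which removes the propeptide of lysyl oxidase, the procollagen enhancer gene Pcolce (-0.70) and the copper chaperone gene Atox1 (-0.42), named after their values were seen. The other lysyl oxidase genes were divided, as Lox and Loxl1 were: Loxl3 had 0.81 and Loxl4 -0.90, and each passed. Neu1, a sialidase of the elastin receptor complex, fell 2.89-fold (coefficient -1.53, SE 0.15), and Ctsl, a cathepsin that can degrade elastin, fell 4.43-fold (coefficient -2.15, SE 0.12). Fkbp14, a chaperone of the secretory pathway, rose 2.47-fold (coefficient 1.30, SE 0.17).

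**Figure D2:**
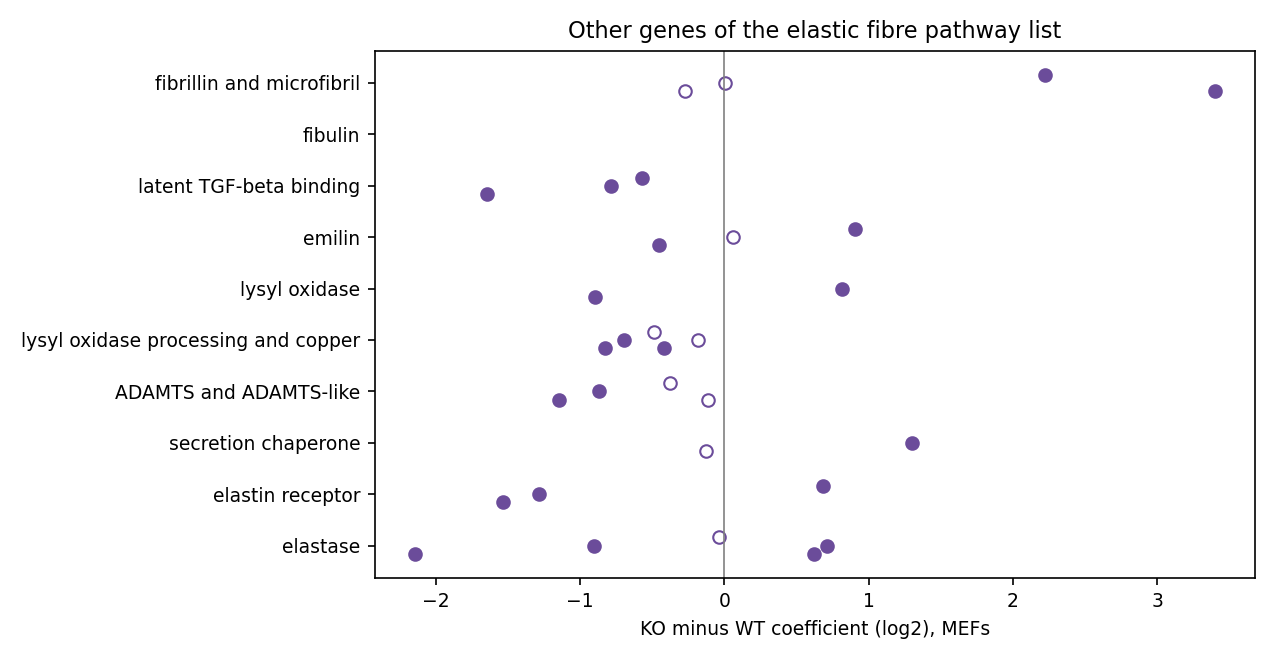
KO minus WT coefficients (log2, horizontal axis) of the 31 tested genes of the pathway list in the MEFs, 1 point a gene, in a row for each role. Filled points passed at an adjusted p under 0.05 and open points did not, and no fibulin of this list passed the filter. The 2 points farthest to the right are Fbn2 at 2.22 and Mfap4 at 3.4, and all 3 latent TGF-beta binding genes lie left of 0.

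No change of these genes with serum passed the test. At 30 min against 0 min, 0 of the 6 tested genes passed in limma and 0 had an unadjusted p under 0.05, against 0.251% of all genes called. Their coefficients ran from -0.17 for Fbln1 to 0.18 for Fbln2, and the 95% intervals of all 6 lay between -0.71 and 0.72. At 90 min against 0 min 0 of 6 passed, again 0 at an unadjusted p under 0.05, against 13.5% of all genes called. The coefficients there ran from -0.37 for Loxl1 (SE 0.16, n = 2 pairs, adjusted p = 0.170) to 0.41 for Fbln2 (SE 0.22, adjusted p = 0.263), with intervals between -0.88 and 0.94. Between 30 and 90 min 0 of 6 passed, against 9.91% of all genes called, with intervals between -0.85 and 0.76. Here too 0 had an unadjusted p under 0.05. Of all genes, 7.99%, 31.0% and 30.3% had one in the 3 comparisons, in the order given. Over 2 pairs, the intervals leave room for changes of nearly 2-fold. The widest single differences at 90 min were in WT cells, where Mfap5 went from 7.01 to 6.27 and Fbln2 from 3.87 to 4.57. Of the pathway list, 0 of 31 genes passed in any of the 3 serum comparisons. At an unadjusted p under 0.05 there were 0, 4 (12.9%) and 5 (16.1%), each below the share of all genes (7.99%, 31.0% and 30.3%).

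The change of the serum response with the KO has no test, since it leaves no residual spread. At 30 min 0 of the 6 members differed by 1 log2 unit or more, as 1.64% of all genes did. At 90 min 1 of 6 did, against 6.44% of all genes: Mfap5 stood 1.08 higher by this measure. It went from 7.01 to 6.27 in WT cells and from 2.86 to 3.20 in KO cells, where every value lay below the array median. With such levels raised to the median, 0 of the 6 members passed 1.

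In 10T1/2 cells all 7 genes lay above the array median on all 4 arrays, in contrast to the MEFs. Fbln2 read 11.44 in the control and Fbln5 11.99, where the WT MEF array without serum read 3.87 and 4.34. Eln read 6.82 against 3.81, and Loxl1 11.60 against 9.56. Fbln1 went the other way, with 5.10 and 5.64 on one probe set (1422540_at) and 4.94 and 6.89 on its representative. Between the 10T1/2 control and the WT MEF array at 0 min, 4 of the 7 genes were at least 2-fold higher and 1 at least 2-fold lower, against 24.6% and 19.0% of all genes. Whether both cell systems were normalized together is unknown, and no test was made.

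On the representative probe sets, the levels of some genes fell into an order over the cell systems. For Fbln5 it was 10T1/2 (11.20 to 11.99), KO MEFs (9.66 to 9.91) and WT MEFs (4.18 to 4.34), with no overlap. Loxl1 had the same order, at 11.35 to 11.60, 10.52 to 10.89 and 9.19 to 9.63. For Fbln1 it was KO MEFs (9.70 to 9.93), WT MEFs (6.62 to 6.89) and 10T1/2 cells (3.73 to 4.94). For Mfap5 the 10T1/2 arrays (6.77 to 8.42) overlapped with WT MEFs (6.27 to 7.01) and stood above KO MEFs (2.86 to 3.20). Lox was high everywhere, with 10T1/2 cells at 11.57 to 12.72, WT MEFs at 11.37 to 11.50 and KO MEFs at 10.95 to 10.97. Its second well-expressed probe set, 1448228_at, had no such order. There 10T1/2 cells (10.56 to 11.74), WT MEFs (10.89 to 11.01) and KO MEFs (10.67 to 10.92) overlapped. For Eln and Fbln2, 10T1/2 cells stood above the MEFs. The MEF genotypes overlapped for Eln. For Fbln2 the KO values (3.55 to 3.83) lay just below the WT values (3.87 to 4.57), all near the array medians.

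**Figure D3:**
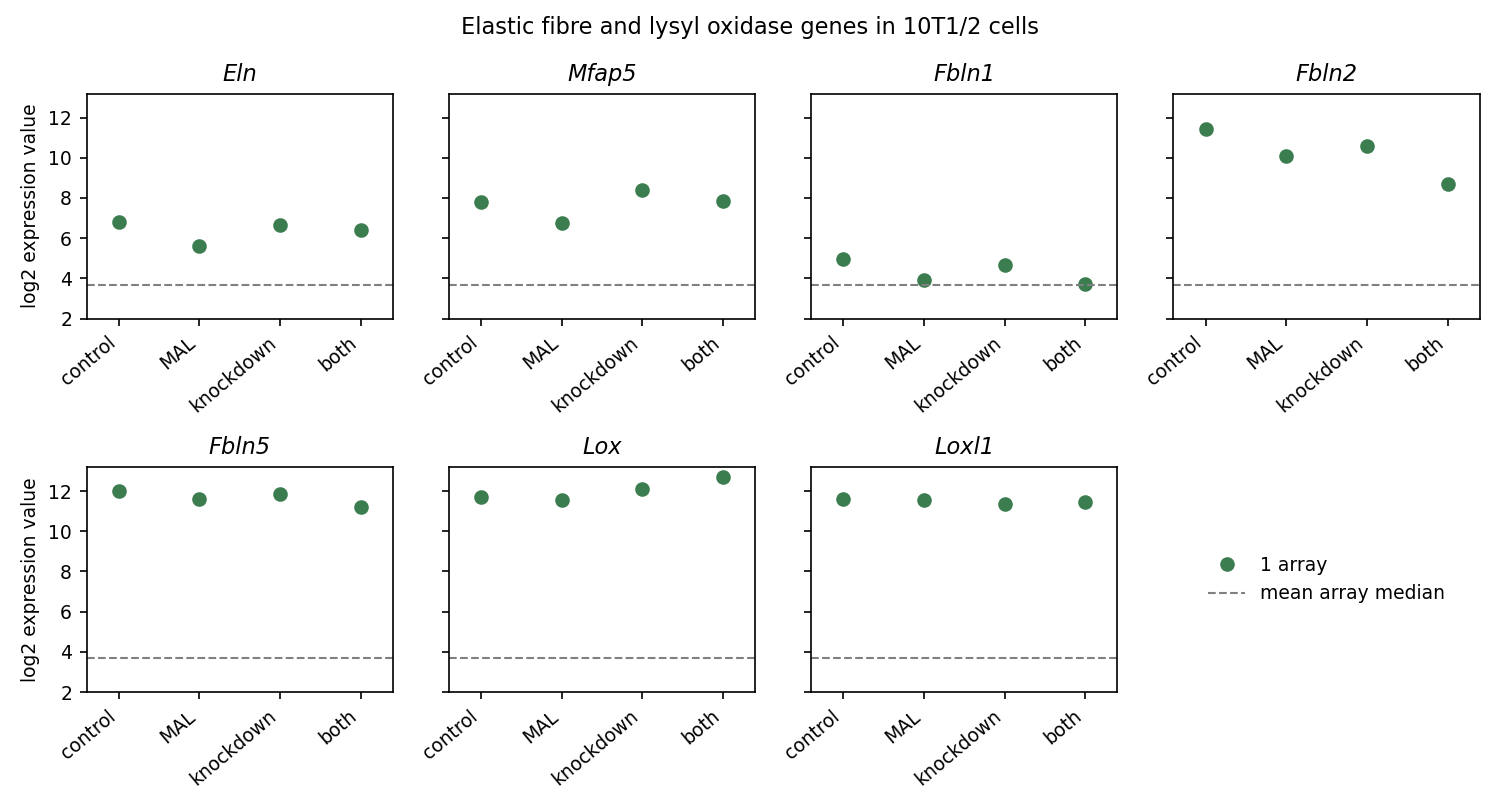
Levels of the 7 genes on the 4 arrays of 10T1/2 cells (control, MAL overexpression, Med23 knockdown, both), as log2 expression values of the representative probe set, 1 array a point. The dashed line is the mean of the 4 array medians. Fbln2 is lowest with both treatments (8.70), Lox is highest there (12.72), and Loxl1 stays between 11.35 and 11.60.

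MAL overexpression was compared over 2 pairs of arrays, without and with the knockdown. In limma 0 of the 7 genes passed, against 0.0643% of all genes. At an unadjusted p under 0.05 there were 4, all lower, against 27.6% of all genes in either direction. Of all 12440 genes, 1726 were higher and 1706 lower at that threshold. Fbln2 read 11.44 in the control and 10.10 with MAL, and 10.58 with the knockdown and 8.70 with both. The MAL values were the lower ones in each pair, with a coefficient of -1.61 (SE 0.22, n = 2 pairs, 3.05-fold lower, adjusted p = 0.0678). Over the 8 alternatives this adjusted p ran from 0.00067 to 0.119.

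Fbln1 read 4.94 and 3.91 without the knockdown and 4.67 and 3.73 with it, in the order without and with MAL (-0.99, SE 0.18, n = 2 pairs, limma adjusted p = 0.0734, 0.00838 to 0.120 over the 8 alternatives). Its MAL values lay close to the array medians. Mfap5 read 7.79 and 6.77, and 8.42 and 7.87, in the same order (-0.79, SE 0.21, adjusted p = 0.109, 0.0327 to 0.201 over the alternatives). Its second probe set, 1449082_at, read 5.38 and 5.2, and 6.90 and 6.99, and so showed no such difference (-0.05, SE 0.19). Eln read 6.82 and 5.59 without and 6.66 and 6.41 with the knockdown (-0.74, SE 0.29, adjusted p = 0.184, 0.0495 to 0.269). Fbln5 had -0.51 (SE 0.19, adjusted p = 0.180), Lox 0.24 (SE 0.25, adjusted p = 0.581) and Loxl1 0.04 (SE 0.18, adjusted p = 0.929). The 95% interval for Loxl1 ran from -0.44 to 0.51.

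The Med23 knockdown in 10T1/2 cells was likewise compared over 2 pairs, without and with MAL. In limma 0 of the 7 genes passed, as did 0 of all 12440 genes, while 3 of the 7 had an unadjusted p under 0.05, against 31.9% of all genes. Fbln2 was lower with the knockdown in each pair, 10.58 against 11.44 without MAL and 8.70 against 10.10 with it (coefficient -1.13, SE 0.22, n = 2 pairs, adjusted p = 0.0750, 0.00674 to 0.123 over the alternatives). Mfap5 was higher, 8.42 against 7.79 and 7.87 against 6.77 (0.87, SE 0.21, adjusted p = 0.0896, 0.0360 to 0.132). Its second probe set differed by more, 6.90 against 5.38 and 6.99 against 5.2 (1.66, SE 0.19, 3.15-fold).

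Lox was higher with the knockdown as well, 12.12 against 11.70 without MAL and 12.72 against 11.57 with it (0.79, SE 0.25, n = 2 pairs, limma adjusted p = 0.118, 0.0290 to 0.169 over the alternatives). The probe set 1448228_at gave the same size, with 11.02 against 10.63 and 11.74 against 10.56 (0.79, SE 0.26). Fbln5 (-0.29, SE 0.19), Fbln1 (-0.23, SE 0.18) and Loxl1 (-0.19, SE 0.18) had small coefficients, and Eln had no common direction in its pairs (-0.16 and 0.82). Of the 36 tested genes of the pathway list, 0 passed for MAL and 0 for the knockdown. At an unadjusted p under 0.05 there were 15 (41.7%) and 11 (30.6%), against 27.6% and 31.9% of all genes. In the comparison of the combined treatment with the sum of both, 0 of the 7 members reached 1 log2 unit, against 7.18% of all genes. Eln came nearest at 0.98, followed by Lox at 0.73. The array with both treatments correlated least with the others over all probe sets (r from 0.955 to 0.980, against 0.982 to 0.984 among the other 3), and its part in these values was not tested.

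Set side by side, the loss of Med23 went with different values in the 2 cell systems. Fbln5, Fbln1 and Loxl1 were higher in all 3 KO pairs of MEFs and lower in both knockdown pairs of 10T1/2 cells. Lox and Mfap5 were lower in all 3 KO pairs and higher in both knockdown pairs. For 5 of the 6 genes tested in both systems the pairs were thus all of opposite sign, as they were for 22.6% of all 11230 genes. This holds for the representative probe sets: for Fbln1, 1422540_at gave -0.86 and 0.01 in the knockdown pairs, and for Fbln5 the mean of its probe sets turned the knockdown coefficient to 0.055. Fbln2 had 1 sign in every pair, as 29.2% of all genes had, but in MEFs its values at 0 min lay below the array medians in both genotypes, and probe set 1438375_at gave 0.04, 0.0 and 0.04, so no common direction is read from it. A test of the difference between both coefficients, made after these signs were seen, passed for those 5 genes, against 29.3% of all genes. The labels do not say in which serum state the 10T1/2 cells were taken.

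**Figure D4:**
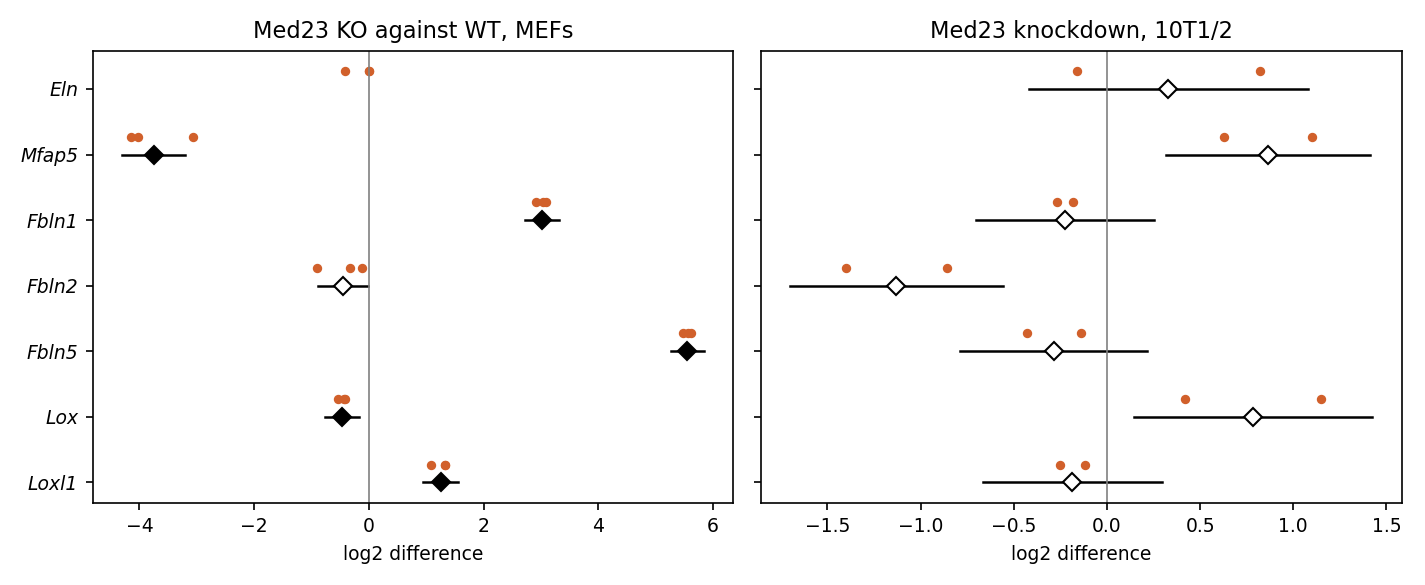
Log2 differences of the 7 genes for Med23 KO against WT in MEFs (left) and Med23 knockdown in 10T1/2 cells (right), on separate horizontal scales. Diamonds are limma coefficients with 95% intervals, filled where the adjusted p is under 0.05, and small circles are single pairs of arrays. Eln has no coefficient on the left because it was not tested there. Fbln5 lies at 5.55 on the left and at -0.29 on the right, and Mfap5 at -3.75 and 0.87.

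Genes whose pattern lay closest to a member were found by the root mean square difference over the 10 arrays, after each gene's own mean was subtracted, among 13034 genes. The closest to Fbln5 were Serpinf1 (0.46 log2 units), which encodes the secreted protein PEDF, and Ctsz (0.50), a cathepsin. Fbln1 lay closest to Slc4a4 (0.39), a bicarbonate transporter, and Cemip (0.42), and Mfap5 to Mid1ip1 (0.58) and the lymphotoxin receptor gene Ltbr (0.60). Fbln2 lay closest to Pcolce2 (0.37), another procollagen enhancer, and Pgm5 (0.57). For Eln the closest were Ccdc8 (0.22) and Tril (0.23), for Loxl1 Cds2 (0.14) and Asrgl1 (0.14), and for Lox Mlf1 (0.14) and Tmem181a (0.16). Genes that vary little, such as Lox and Loxl1, have small differences from many others, so the values are not comparable between members.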

How the data were processed

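The authors deposited log2 expression values for 45101 probe sets on 10 arrays. RMA and MAS5 are named per the submitters' processing notes, without roles or versions, and whether MEF and 10T1/2 arrays were normalized in 1 run is not stated in them. Each column carried the name of 1 sample. Symbols came from the platform annotation, updated through Entrez identifiers to RefSeq genes of GRCm38.p6. For each of 18193 genes the probe set of highest average level across the arrays was kept. A gene was tested when its highest value exceeded the median of all probe sets of that fit, 3.90 in the MEFs (11933 genes) and 3.67 in 10T1/2 cells (12440 genes).

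Additive models in limma 3.58.1 (R 4.3.3) held genotype and serum time in the MEFs (2 residual degrees of freedom, 4.18 prior) and MAL and knockdown in 10T1/2 cells (1 residual, 3.83 prior). The spread is thus that between pairs of arrays, not between replicates, an array gives no depth, and precision is limited by how few arrays there are. p-values were two-sided, with Benjamini-Hochberg adjustment over all genes tested. Levels below the array median were raised to it for folds given as at least. The fits were tested on simulated data. Members, lists and tests were chosen with earlier results of these data known. Named pathway genes were the 6 largest coefficients past 0.05 with 1 sign in every pair; Mfap2, Mfap3, Bmp1, Pcolce, Atox1, Loxl3 and Loxl4 fall outside that rule and were named after their values were seen. Closest genes were the 2 with the smallest difference. A test of KO minus knockdown over all 10 arrays was added after the data were seen.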

Additional observations from a re-analysis of the deposited data

Results flagged for a closer look

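The coefficients for KO and knockdown differed between the cell systems for 5 genes. The test was of the difference itself, KO in MEFs minus knockdown in 10T1/2 cells, made in limma on 1 additive model of all 10 arrays. For Fbln5 the difference was 5.84 (SE 0.21, adjusted p = 5.68e-06). It was 3.24 for Fbln1 (SE 0.20, adjusted p = 5.17e-05), 1.44 for Loxl1 (SE 0.21, adjusted p = 0.00232), -1.25 for Lox (SE 0.26, adjusted p = 0.00991) and -4.62 for Mfap5 (SE 0.35, adjusted p = 0.000133). All 3 KO values of Mfap5 lay below the array median, so the size of its difference is not exact; with such levels raised to the median it was -3.71 (adjusted p = 0.00247). On the representative probe sets, all 3 MEF pairs of each gene had the opposite sign to both 10T1/2 pairs; for Fbln1 the probe set 1422540_at had knockdown pairs of -0.86 and 0.01, and for Fbln5 the mean of probe sets gave a knockdown coefficient of 0.055. Eln (-0.47, adjusted p = 0.313) and Fbln2 (0.68, adjusted p = 0.129) did not pass. Of all 13034 genes tested, 29.3% passed, so such a difference is common here. The test was added after the signs had been seen, and it pools the spread of both cell systems. The extent of the loss differed too, with Med23 below the array median on all 3 KO arrays and above it on both knockdown arrays; its part in the differences was not tested.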

How the results depend on the processing

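For KO against WT, the calls and directions of Fbln1, Fbln5, Loxl1 and Mfap5 held under all 12 alternatives and that of Lox under 8; Lox also missed with the mean of its probe sets (-0.28, adjusted p = 0.0659) and in the model of all 10 arrays (adjusted p = 0.0587). Without the pair of arrays at each serum time in turn, 4 to 5 members were called for KO. With the mean of probe sets, which adds probe sets at background, the Fbln5 coefficient was 2.81, the lowest of the 12, and that of Mfap5 -1.98. Members called for MAL, 0 as reported, were 4 after quantile normalization, 2 in the model of all 10 arrays, 1 with the mean of probe sets and 1 with a trended prior. For the knockdown they were 3, 2, 1 and 1 in that order. Calls over all genes moved likewise, from 8 to 2014, 2236, 587 and 542 for MAL and from 0 to 2472, 2658, 340 and 599 for the knockdown. For KO they were 2680, 2398 and 4891 without the 0, 30 and 90 min arrays, and 2857 without a serum term, against 5018. At 30 min of serum they were 30, 58 in the model of all 10 arrays, 59 with a trended prior, 13 with the mean of probe sets and 2 with raised levels, and at 90 min 1612 and 819 with raised levels. Between 30 and 90 min they were 1183, 768 with the mean of probe sets and 119 with raised levels. The count of 1 member for the KO change at 90 min became 0 after quantile normalization, with the mean of probe sets and with raised levels, which were added after the data were seen. Sign changes were limited to results that had not passed. With the mean of probe sets they were Lox (-0.0767) and Loxl1 (0.17) at 30 min, Fbln1 (0.0017), Fbln5 (0.115) and Mfap5 (0.0725) between 30 and 90 min, and Fbln5 (0.055) for the knockdown. Fbln2 at 30 min turned to -0.015 with raised levels, and Fbln1 between 30 and 90 min to 0.015 after quantile normalization. Leaving out an array of 10T1/2 cells was not run, since no residual degree of freedom remains. The labels give no replicate numbers; the fits pair arrays by serum time, MAL or knockdown.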

Other observations

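By the same root mean square measure over the 10 arrays, the closest 2 members were Lox and Loxl1 (0.81 log2 units apart) and the farthest Fbln1 and Fbln2 (5.22). Loxl1 nevertheless ranked 8440th of 13034 genes by closeness to Lox. Fbln5 and Fbln1, which both rose in KO MEFs, lay 4.32 apart, with Fbln5 between 11.20 and 11.99 and Fbln1 between 3.73 and 4.94 in 10T1/2 cells. Eln, which like Fbln2 read higher in 10T1/2 cells than in MEFs, lay 1.91 from Fbln2 and ranked 190th by closeness to it.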
